A study of Mus musculus with 6 samples.

Results

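The interleukin-1 family genes described here are 4 ligand genes (Il1a, Il1b, Il33 and Il18), the gene of the receptor antagonist (Il1rn) and 3 receptor genes (Il1r1, Il1rl1 and Il1rap). They were taken by gene name from the deposited count tables, and all 8 names were found among the 55401 genes listed. The genes were chosen by results of this same comparison, the counts of IPRN against DMSO libraries, so their differences between treatments are given as a description, with no p-value, and nothing is supported with them. Messenger RNA was sequenced from NIH3T3, a permanent fibroblast line from mouse embryo that is wild type by label. The label of 3 libraries is IPRN, and the label of the other 3 is DMSO, the solvent used as vehicle. The design text says that hydrogen peroxide and TGF-β were given to the cells before IPRN, to study its action on cancer-associated fibroblasts, and the series title names angelicin. Dose, duration and whether the DMSO cells received both stimuli are not in the labels, nor is a separate culture stated for each replicate, so the spread between replicates may be technical.

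Interleukin-1α and interleukin-1β bind the receptor encoded by Il1r1, which then recruits the accessory protein encoded by Il1rap and signals through MyD88 and IRAK kinases to NF-κB and MAP kinases. The antagonist encoded by Il1rn occupies the same receptor without recruiting the accessory protein. Interleukin-33, an alarmin stored in the nucleus, uses the same accessory protein with its own receptor ST2, the product of Il1rl1, while interleukin-18 has a separate receptor pair. ST2 is made as a membrane receptor and as a secreted decoy, and its transcript was first cloned from growth-stimulated 3T3 fibroblasts.

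Total counts ran from 63594179 to 74183334 in IPRN libraries and from 60320282 to 78629444 in DMSO libraries. Low counts had an excess at 4, 8 and 12 (over all libraries, 7383 values were 4 but 1258 were 5, and 3922 were 8 but 868 were 9). Counts of 1, 2 and 3 were also common, with 3469, 2923 and 2109 values. An excess stood at 19 and not at 20 (611 values were 18, 1182 were 19 and 481 were 20). A floor of 12 counts, or 3 steps of 4, is used for low genes. It equals 0.153 to 0.199 CPM (counts scaled to a common library total) over the 6 libraries. The 10 fibroblast markers summed to 22535, 25230 and 24493 CPM in IPRN 1, 2 and 3 and to 21450, 20897 and 21895 CPM in DMSO 1, 2 and 3. Of these 10, 2 fell and 1 rose in edgeR. Pdgfra fell to 113.3 ± 2.28 CPM in IPRN, against 188.6 ± 2.09 CPM in DMSO cells (adjusted p = 0.000351), and Dcn to 161.6 ± 24.7 CPM in IPRN, against 335.2 ± 3.17 CPM in DMSO cells (adjusted p = 0.00419; SD, n = 3 each). Fn1 rose to 6474 ± 398.2 CPM in IPRN, against 5011 ± 83.2 CPM in DMSO cells (adjusted p = 0.0154), but was not called without IPRN 2 or without any 1 DMSO library. Neither Dcn nor Fn1 was called without both IPRN 3 and DMSO 1. Pdgfra and Fn1 overlap an exon of other models, and the part of these marker changes in the values of the family was not tested. Libraries IPRN 3 and DMSO 1 stood apart. In both, 15 of 22 liver marker genes had a count of 0, against 0 of 22 in the other 4 libraries. The 22 genes summed to 141.5, 61.0 and 21.8 CPM in IPRN 1, 2 and 3 and to 44.0, 107.8 and 82.6 CPM in DMSO 1, 2 and 3. These sums include Hp, the haptoglobin gene, which differed by treatment, at 15.4 ± 0.511 CPM in IPRN and 40.5 ± 0.981 CPM in DMSO cells (SD, n = 3 each). The other 21 genes summed to 126.2, 45.1 and 6.80 CPM in IPRN 1, 2 and 3 and to 4.61, 67.0 and 41.4 CPM in DMSO 1, 2 and 3, and Alb, the albumin gene, had 3051, 1018 and 12 counts in IPRN 1, 2 and 3 against 0, 1544 and 899 in DMSO 1, 2 and 3. The 9 macrophage and monocyte markers summed to 144.8 CPM in IPRN 3, against 22.3 and 22.4 CPM in IPRN 1 and 2 and 13.2 to 25.3 CPM in DMSO libraries. In DMSO 1, 4 of the 9 (Adgre1, Itgam, Tyrobp and Fcer1g) had a count of 0. Of the 9 markers, 4 were higher in every IPRN library than in any DMSO library and 1 was lower. Among all tested genes these shares were 14.9% and 14.7%. The median log2 fold change of the 9 was 1.56, and 0 were called in either direction. The part of these markers in the values of the family was not tested. Mast cell and lymphocyte markers summed to at most 0.402 and 0.165 CPM in any library. Endothelial markers summed to 1.61 to 2.85 CPM in IPRN and 3.42 to 3.60 CPM in DMSO libraries, and epithelial markers to 4.04 to 8.88 and 4.31 to 7.48 CPM.

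Across the 8 genes, Il1a and all 3 receptor genes were lower in IPRN cells than in DMSO cells, and the other 4 genes overlapped between treatments. In the edgeR quasi-likelihood fit over 17159 genes, with Benjamini-Hochberg adjustment over all of them, the rule used for all genes (adjusted p under 0.05) counted these 4 as lower, 0 as higher and 4 as neither. For genes chosen by this contrast that count is no test. Over all tested genes, 3.01% were called lower and 2.46% higher (5.47% in either direction). The values of the 2 treatments did not overlap, with IPRN lower, for the same 4 of 8 genes, against 14.7% of all tested genes (14.9% with IPRN higher and 29.6% in either direction). The median log2 fold change was -0.67 over the 8 genes and 0.0016 over all tested genes. Since this contrast chose the genes, nothing is read from these counts. In bulk RNA, fewer cells that express a gene and less of its RNA per cell cannot be told apart.

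**Figure D1:**
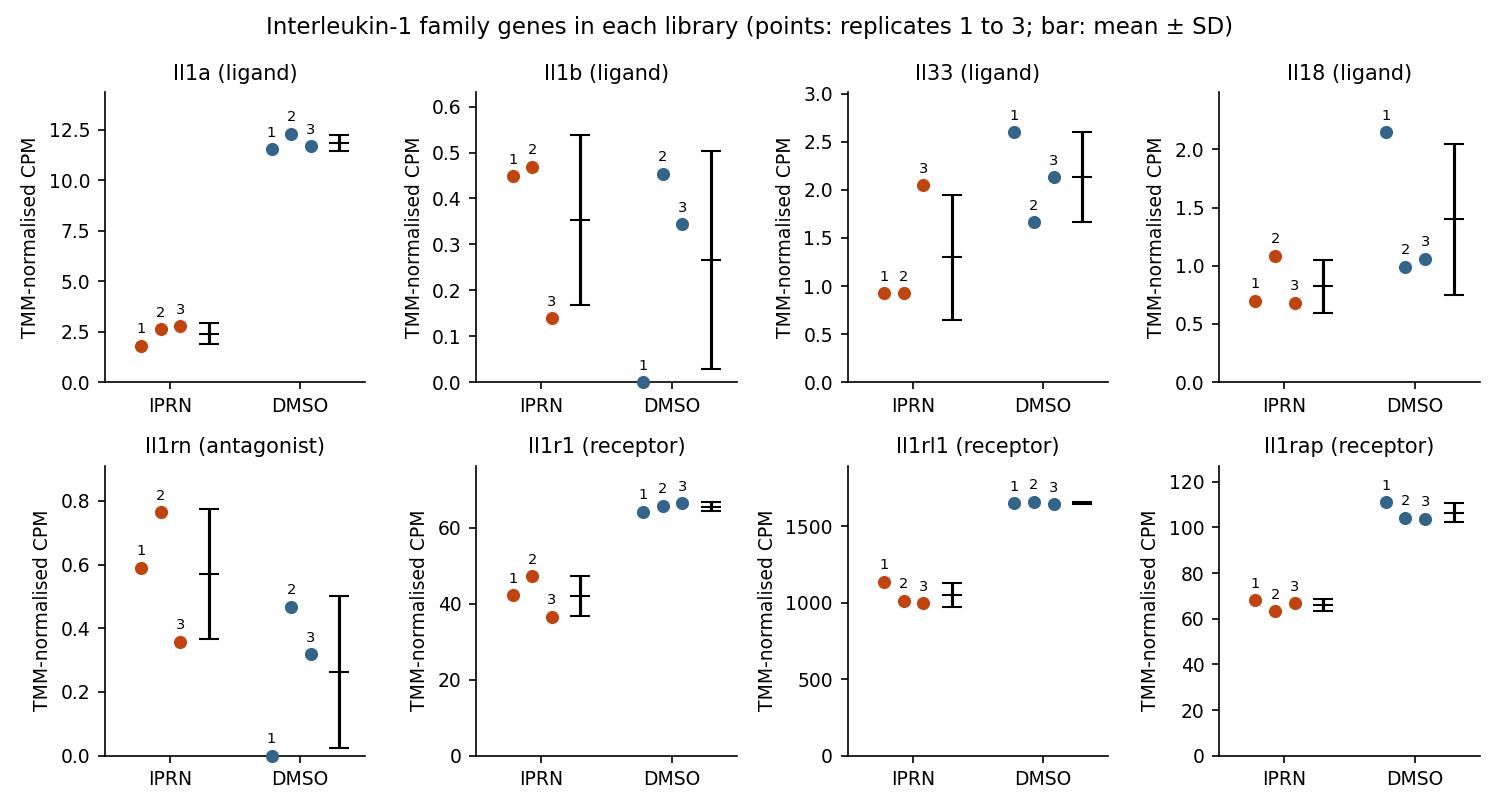
TMM-normalised CPM (vertical axes, linear from 0) of the 8 genes in the 3 IPRN and 3 DMSO libraries, with replicate numbers above the points and the mean ± SD beside them. Il1a, Il1r1, Il1rl1 and Il1rap are lower in every IPRN library than in any DMSO library, while Il1b, Il33, Il18 and Il1rn overlap.

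Of the ligand genes, Il1a was the most abundant and differed most. Il1a (ENSMUSG00000027399, chromosome 2 from 129299610 to 129309972, minus strand, GRCm38) encodes interleukin-1α, which is active as a precursor and is released by damaged cells. Its counts were 129, 196 and 178 in IPRN 1, 2 and 3, against 693, 896 and 917 in DMSO 1, 2 and 3. Scaled by the edgeR TMM library sizes, these were 1.81, 2.63 and 2.76 CPM in IPRN libraries and 11.5, 12.3 and 11.7 CPM in DMSO libraries. All IPRN libraries were low and no value came near the DMSO range. The means were 2.40 ± 0.516 CPM in IPRN and 11.8 ± 0.411 CPM in DMSO cells (SD, n = 3 each), a log2 fold change of -2.30 ± 0.177 (SE), or 4.93-fold lower in IPRN cells. With IPRN 3 and DMSO 1 left out, the log2 fold change was -2.43. Between those 2 libraries alone the log2 ratio, with 0.5 CPM added, was -1.88. Part of an exon of Il1a is shared with Gm14023, a model on the opposite strand, and the protocol marks no strand. Gm14023 itself had 4, 7 and 0 counts in IPRN 1, 2 and 3 and 9, 31 and 16 counts in DMSO 1, 2 and 3.

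The promoter of Il1a is shown because it belongs to the gene with the largest difference among those clear of the floor. RefSeq gives Il1rn 3 promoters. The first is shown because no other promoter searched held matches to more than 1 of the motifs, and the others of Il1rn held no match. The sequences are from RefSeq (GRCm38.p6), run 5′ to 3′ on the strand of the gene, and cover 250 bases before and 50 bases from the start of transcription, at chr2:129309923-129310222 (minus strand) and chr2:24336610-24336909 (plus strand). Capitals mark matches on either strand to GGGA, any 4 bases and CC, a loose form of the NF-κB site, or to TGANTCA, the AP-1 site. The 2 motifs do not overlap in either window.
Il1a: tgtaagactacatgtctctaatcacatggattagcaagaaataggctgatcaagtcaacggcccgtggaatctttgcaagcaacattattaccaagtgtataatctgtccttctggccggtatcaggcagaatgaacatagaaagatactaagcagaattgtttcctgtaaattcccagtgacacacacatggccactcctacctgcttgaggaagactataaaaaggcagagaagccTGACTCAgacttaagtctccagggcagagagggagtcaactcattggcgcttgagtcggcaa
Il1rn: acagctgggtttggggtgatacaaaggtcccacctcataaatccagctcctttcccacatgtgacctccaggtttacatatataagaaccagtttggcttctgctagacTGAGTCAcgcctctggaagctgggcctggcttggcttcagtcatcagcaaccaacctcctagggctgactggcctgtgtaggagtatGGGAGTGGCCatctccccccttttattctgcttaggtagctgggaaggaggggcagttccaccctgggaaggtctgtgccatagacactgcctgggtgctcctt
In Il1a the only match was an AP-1 site, TGACTCA, from 12 to 6 bases before the start. In the first window of Il1rn an AP-1 site, TGAGTCA, ended 135 bases before the start. A match to the loose NF-κB letters, GGGAGTGGCC, ended 45 bases before it. RefSeq listed 13 windows for the 8 genes, and 3 of them held a match: 2 held an NF-κB and 2 an AP-1 match, and 0 held the CRE motif TGACGTCA. Over all 32851 RefSeq mouse promoters of this length, 20.7% held the NF-κB, 7.81% the AP-1 and 1.79% the CRE letters. No match was found in the windows of Il1b, Il33, Il18, Il1r1 and Il1rl1, which says only that these letters are not there.

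Il33 and Il18 were low and varied between replicates. Il33 (ENSMUSG00000024810, chromosome 19 from 29925114 to 29960718, plus strand) had 0.926, 0.925 and 2.05 CPM in IPRN 1, 2 and 3, against 2.60, 1.66 and 2.13 CPM in DMSO 1, 2 and 3. IPRN 3 lay inside the DMSO range, whereas IPRN 1 and 2 lay below every DMSO library. The log2 fold change was -0.71 ± 0.383 (SE), and -1.20 without IPRN 3, the library with the highest sum of macrophage markers. The part of those markers in the value was not tested. Il18 (ENSMUSG00000039217, chromosome 9 from 50554827 to 50581840, plus strand), whose product is matured by caspase-1, had 0.701, 1.09 and 0.683 CPM in IPRN 1, 2 and 3, against 2.15, 0.989 and 1.06 CPM in DMSO 1, 2 and 3. DMSO 1 was high and the other 5 libraries lay close together, with IPRN 2 above DMSO 2 and 3. The log2 fold change of Il18 was -0.76 ± 0.408 (SE), and -0.31 without DMSO 1. With both IPRN 3 and DMSO 1 left out it was -1.03 for Il33 and -0.20 for Il18, and between those 2 libraries the log2 ratio was -0.28 and -1.16.

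Il1b and Il1rn were near the limit of detection. Il1b (ENSMUSG00000027398, chromosome 2 from 129364570 to 129371139, minus strand), the gene of the secreted inflammatory ligand interleukin-1β, had 32, 35 and 9 counts in IPRN 1, 2 and 3, against 0, 33 and 27 in DMSO 1, 2 and 3. Il1rn (ENSMUSG00000026981, chromosome 2 from 24336853 to 24351494, plus strand) had 42, 57 and 23 counts in IPRN 1, 2 and 3, against 0, 34 and 25 in DMSO 1, 2 and 3. For both genes DMSO 1 was at 0 and IPRN 3 was the lowest of its treatment, and these are the libraries in which 15 of 22 liver markers were at 0. A count of 0 in DMSO 1 allows up to 0.199 CPM at the floor of 12 counts, for counting error only, and the 9 counts of Il1b in IPRN 3 were also under this floor. The log2 fold changes were 0.40 ± 1.16 for Il1b and 1.11 ± 1.08 for Il1rn (SE). Without IPRN 3 and DMSO 1 they were 0.20 and 0.78. Without DMSO 1 alone, Il1b turned to -0.17 and Il1rn was at 0.54. The part of RNA from another tissue in these values was not tested. Il1b shares part of an exon with the antisense model Il1bos, which had 0 counts in every IPRN library and 4, 0 and 0 counts in DMSO 1, 2 and 3.

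**Figure D2:**
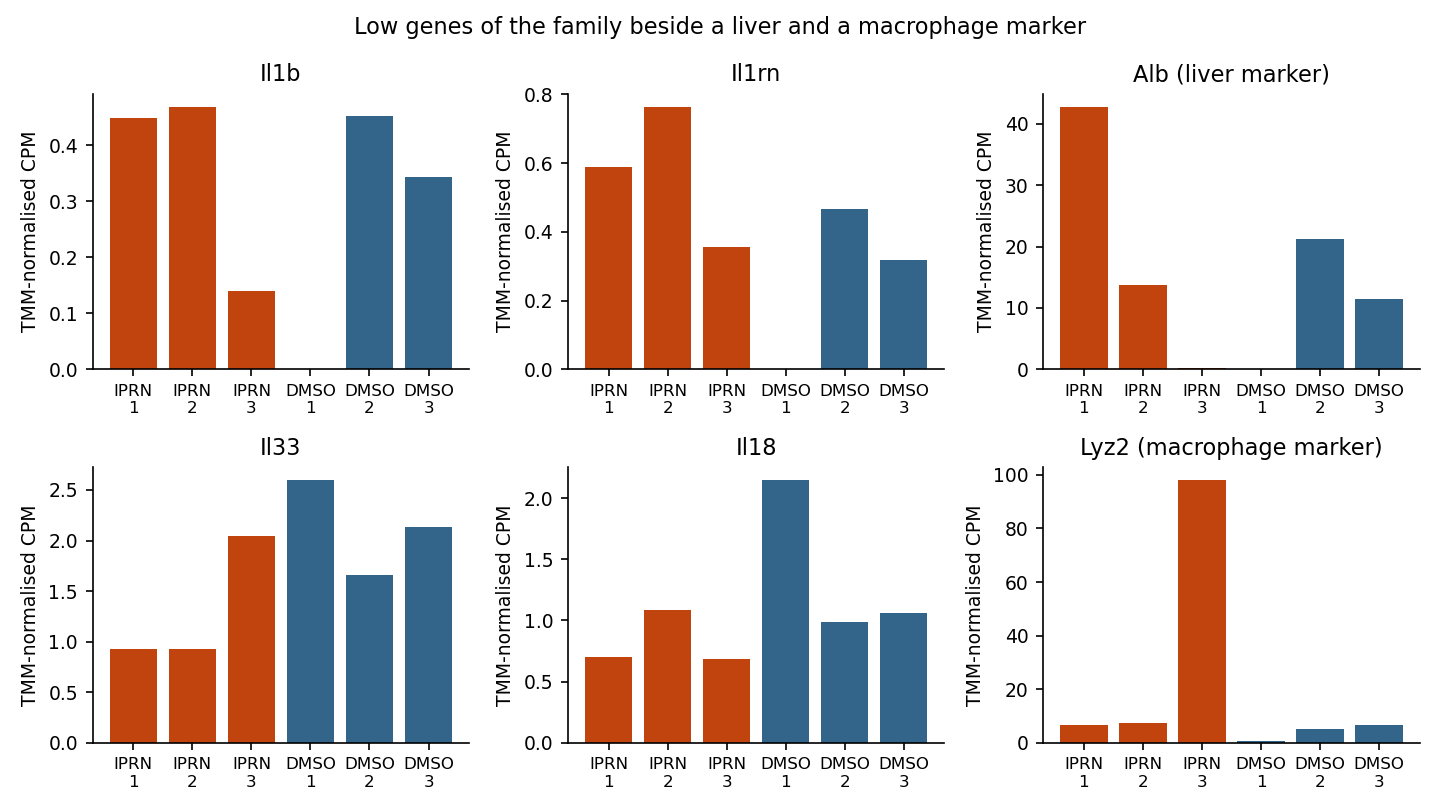
TMM-normalised CPM (bars from 0) of Il1b, Il1rn, Il33 and Il18 in each IPRN and DMSO library, beside Alb, a liver marker, and Lyz2, a macrophage marker. Il1b, Il1rn and Alb are at 0 in DMSO 1 and lowest among IPRN libraries in IPRN 3, the library in which Lyz2 is highest.

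All 3 receptor genes were lower in IPRN cells, with log2 fold changes of -0.69 to -0.64. Il1rl1 (ENSMUSG00000026069), the ST2 gene, lies on chromosome 1 from 40429570 to 40448148 on the plus strand. It had 1139, 1013 and 998 CPM in IPRN 1, 2 and 3, against 1653, 1661 and 1646 CPM in DMSO 1, 2 and 3. The DMSO libraries were almost equal and each IPRN library lay well below them. The means were 1050 ± 77.3 CPM in IPRN and 1654 ± 7.32 CPM in DMSO cells (SD, n = 3 each), a log2 fold change of -0.66 ± 0.0588 (SE), or 1.58-fold lower. By mean CPM, Il1rl1 ranked 64 among all genes listed, and it held between 0.101% and 0.166% of the total count of a library. The summed CPM of the 8 genes was 1163 ± 78.8 in IPRN and 1841 ± 7.95 in DMSO cells, of which Il1rl1 made up 89.7% to 90.8% in IPRN and 89.6% to 89.9% in DMSO libraries. Without Il1rl1 the other 7 genes summed to 113.4 ± 3.64 CPM in IPRN and 187.7 ± 3.27 CPM in DMSO cells.

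The deposited table ends Il1rl1 at 40448148, while GENCODE M21 ends it at 40465415. The length implied by its count and FPKM (fragments scaled by gene length and library size) was 6891 bases, close to the 6894 bases of all GENCODE exons and far from the 2929 bases that end by 40448148. The deposited FPKM was therefore scaled by the length of all models together. Whether the count covers the same exons was not tested, and the membrane and secreted forms were not told apart. RefSeq gives Il1rl1 a pair of starts, and both promoters are printed because the gene holds most of the family's RNA in these cells. They lie at chr1:40429320-40429619 and chr1:40439379-40439678 on the plus strand, and neither has capitals since neither held a match.
Il1rl1 first start: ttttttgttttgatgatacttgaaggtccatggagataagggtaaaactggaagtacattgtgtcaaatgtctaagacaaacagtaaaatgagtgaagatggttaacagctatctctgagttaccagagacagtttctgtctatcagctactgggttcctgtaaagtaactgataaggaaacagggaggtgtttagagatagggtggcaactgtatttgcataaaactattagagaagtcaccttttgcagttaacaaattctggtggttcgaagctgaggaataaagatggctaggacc
Il1rl1 second start: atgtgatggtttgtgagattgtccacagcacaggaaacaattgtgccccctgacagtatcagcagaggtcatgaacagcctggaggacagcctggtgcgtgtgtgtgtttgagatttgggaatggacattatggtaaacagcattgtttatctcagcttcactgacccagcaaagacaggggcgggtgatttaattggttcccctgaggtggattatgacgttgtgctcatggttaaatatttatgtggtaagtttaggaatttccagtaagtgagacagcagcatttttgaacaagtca
The starts are at 40429570 and 40439629, and the count of the gene does not say which was used.

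Il1rap (ENSMUSG00000022514, chromosome 16 from 26581704 to 26730117, plus strand), the accessory protein gene shared by interleukin-1 and interleukin-33 signalling, had 68.0, 63.2 and 66.8 CPM in IPRN 1, 2 and 3, against 111.1, 104.2 and 103.8 CPM in DMSO 1, 2 and 3. No library of either treatment came near the other. Its means were 66.0 ± 2.52 CPM in IPRN and 106.4 ± 4.09 CPM in DMSO cells (SD, n = 3 each), a log2 fold change of -0.69 ± 0.055 (SE), or 1.61-fold lower. Gm20319, a model on the opposite strand that shares part of an exon with Il1rap, had 0 counts in every IPRN library and 8, 0 and 8 counts in DMSO 1, 2 and 3. The promoter of Il1rap, at chr16:26581455-26581754 on the plus strand, is shown because it was the only receptor promoter with a match. That match to the loose NF-κB letters, GGGACTGCCC, lay from 119 to 110 bases before the start. The promoter was also rich in G and C, at 72.0%, against 38.7% and 44.7% in the promoters of Il1rl1 and 44.7% in that of Il1a.
Il1rap: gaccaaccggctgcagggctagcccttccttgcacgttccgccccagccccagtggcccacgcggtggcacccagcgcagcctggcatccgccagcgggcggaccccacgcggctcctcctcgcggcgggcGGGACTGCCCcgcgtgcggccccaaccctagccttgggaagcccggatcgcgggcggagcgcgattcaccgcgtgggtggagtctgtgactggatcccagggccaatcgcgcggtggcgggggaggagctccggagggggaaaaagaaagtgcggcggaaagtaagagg

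Il1r1 (ENSMUSG00000026072, chromosome 1 from 40225080 to 40317257, plus strand), the signalling receptor of interleukin-1α and interleukin-1β, had 42.2, 47.2 and 36.5 CPM in IPRN 1, 2 and 3, against 64.1, 65.8 and 66.5 CPM in DMSO 1, 2 and 3. The IPRN libraries were more spread than the DMSO libraries but all lay below them. Its means were 42.0 ± 5.34 CPM in IPRN and 65.5 ± 1.19 CPM in DMSO cells (SD, n = 3 each), a log2 fold change of -0.64 ± 0.0957 (SE), or 1.56-fold lower.

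With IPRN 3 and DMSO 1 left out, the receptor log2 fold changes were -0.62 for Il1rl1, -0.66 for Il1rap and -0.56 for Il1r1. None of these genes was called in that fit. Between those 2 libraries alone the log2 ratios, in the same order, were -0.73, -0.73 and -0.80. Since this contrast chose the genes, nothing is read from these values.

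**Figure D3:**
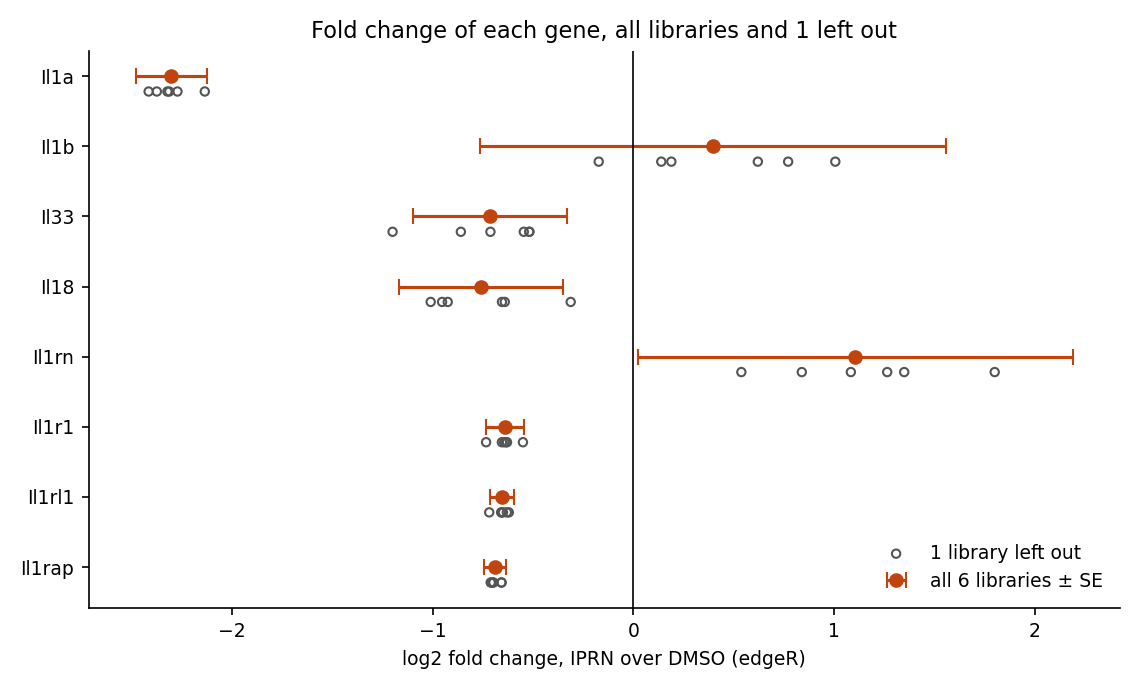
Log2 fold change of IPRN over DMSO (horizontal axis) for each of the 8 genes, with its SE, and the values with 1 library left out as open circles. Il1a and the receptor genes vary little between these fits, whereas Il1b runs from -0.17 to 1.01 and Il1rn from 0.54 to 1.80.

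Per gene length, the levels spanned a wide range and their order by mean was the same in both treatments. In deposited FPKM, Il1rl1 averaged 136.9 ± 7.84 in IPRN and 215.4 ± 1.45 in DMSO cells, Il1r1 5.93 ± 0.739 and 9.23 ± 0.165, and Il1rap 5.23 ± 0.176 and 8.40 ± 0.325 (SD, n = 3 each). Il1a averaged 1.09 ± 0.249 FPKM in IPRN and 5.39 ± 0.195 FPKM in DMSO cells. Below it came Il18 with 0.706 ± 0.206 and 1.20 ± 0.563 FPKM, and Il33 with 0.403 ± 0.207 and 0.657 ± 0.145 FPKM. In IPRN cells the values of Il1r1 and Il1rap, of Il1a and Il18, and of Il18 and Il33 overlapped between neighbours in this order, and in DMSO cells none of these pairs did. Il1b and Il1rn were last, at no more than 0.212 and 0.122 FPKM in IPRN and 0.207 and 0.0739 FPKM in DMSO libraries, and overlapped in both treatments.

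The mean ratios between receptor genes were similar in both treatments. The FPKM ratio of Il1rl1 to Il1rap was 26.2 ± 1.49 in IPRN and 25.7 ± 0.972 in DMSO cells, and that of Il1rl1 to Il1r1 was 23.3 ± 3.04 and 23.3 ± 0.464 (SD, n = 3 each). The ratio of Il1r1 to Il1rap was 1.14 ± 0.181 in IPRN and 1.10 ± 0.0609 in DMSO cells. For each ratio the means of the treatments differed by less than the SD within a treatment, but single libraries varied. In IPRN 1, 2 and 3, Il1rl1 to Il1r1 was 24.9, 19.8 and 25.2 and Il1r1 to Il1rap 1.11, 1.33 and 0.977. In DMSO 1, 2 and 3 they were 23.8, 23.3 and 22.9, and 1.03, 1.13 and 1.14. The genes were chosen by this contrast, so nothing is read from these ratios. The FPKM ratio of the ligand genes Il1a and Il33 was 2.86, 4.24 and 1.98 in IPRN 1, 2 and 3 and 6.53, 10.9 and 8.10 in DMSO 1, 2 and 3, with no overlap.

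**Figure D4:**
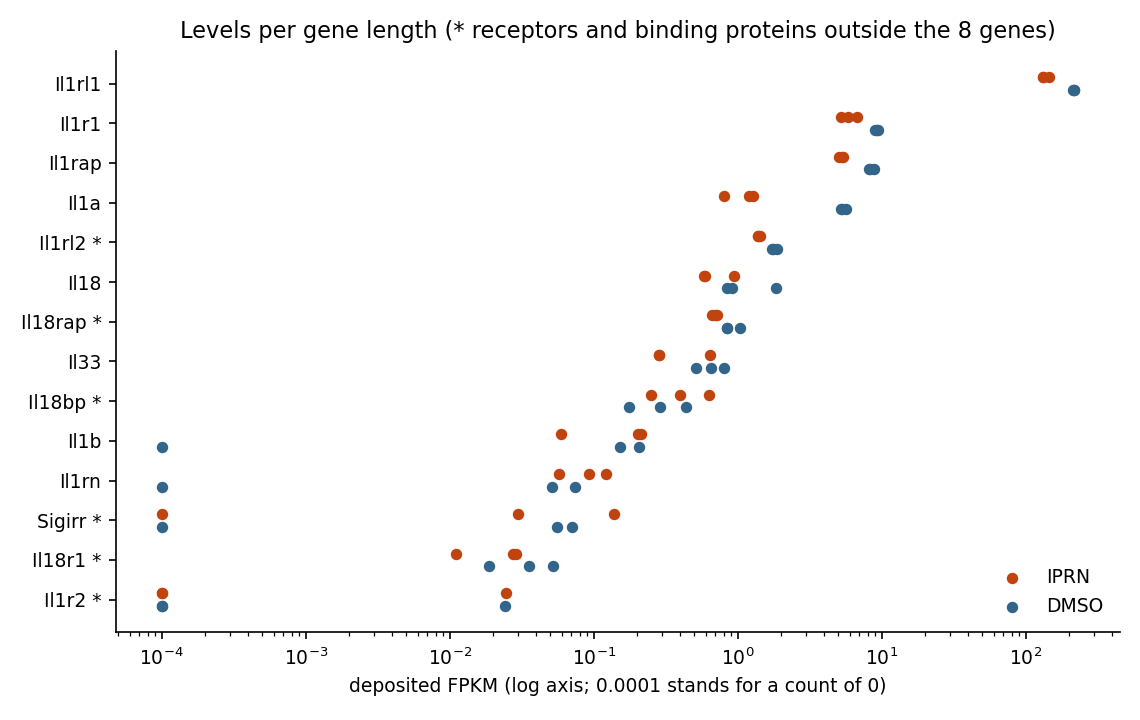
Deposited FPKM (horizontal log axis; 0.0001 stands for a count of 0) of the 8 genes and of 6 further receptor and binding protein genes (asterisks) in each IPRN and DMSO library. Il1rl1 stands far above the rest, and every gene plotted below Il18rap is under 1 FPKM in each library.

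Il1r1 and Il1rl1 lie 112.3 kb apart in a cluster of receptor genes on chromosome 1. Il1rl2, the interleukin-36 receptor gene between them, had 10.6 ± 0.101 CPM in IPRN and 13.5 ± 0.589 CPM in DMSO cells (SD, n = 3 each), with a log2 fold change of -0.36 and an adjusted p of 0.0588 in edgeR. Il18rap, the accessory receptor gene for interleukin-18, had 5.23 ± 0.165 CPM in IPRN and 6.83 ± 0.829 CPM in DMSO cells (log2 fold change -0.39, edgeR adjusted p = 0.136). Il1r2, the decoy receptor gene, had 4, 0 and 0 counts in IPRN 1, 2 and 3 and 0, 4 and 0 in DMSO 1, 2 and 3, and Il18r1, the ligand-binding receptor gene for interleukin-18, had 12, 11 and 4 counts in IPRN and 17, 8 and 16 in DMSO libraries. These 2 low genes were named after their values were seen. Il1a and Il1b lie 54.6 kb apart on chromosome 2, and Il1rn 104.9 Mb away. Il18bp, the gene of a secreted protein that binds interleukin-18, had 1.45 ± 0.630 CPM in IPRN and 1.03 ± 0.447 CPM in DMSO cells (edgeR adjusted p = 0.616). It shares part of an exon with Numa1. Of 17 symbols listed for the rest of the family 13 were in the tables and 6 passed the filter on low counts, of which 0 were called in either direction, with a median log2 fold change of -0.12.

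Downstream of the receptors, 5 of 37 signalling genes fell and 0 rose, with a median log2 fold change of -0.08, against 3.01% and 2.46% of all tested genes and a median of 0.0016. Nfkbiz, a nuclear IκB protein induced by interleukin-1, fell to 65.1 ± 3.43 CPM in IPRN, against 175.4 ± 5.995 CPM in DMSO cells (SD, n = 3 each; log2 fold change -1.43 ± 0.0578, SE; edgeR adjusted p = 7.13e-05). Map3k8, a kinase upstream of ERK, fell to 4.20 ± 0.268 CPM in IPRN, against 7.37 ± 0.530 CPM in DMSO cells (edgeR adjusted p = 0.0181), and Rel, an NF-κB subunit, to 12.8 ± 1.31 CPM in IPRN, against 18.1 ± 0.840 CPM in DMSO cells (edgeR adjusted p = 0.0407). Nfkbiz alone of the 5 kept its call whichever library was left out. The other 2, Chuk and Peli2, had log2 fold changes of -0.23 and -0.37. The proximal adaptors and kinases did not pass the test. The log2 fold change was -0.29 for Myd88 (edgeR adjusted p = 0.136), 0.01 for Irak1 (0.941), -0.10 for Irak4 (0.548) and -0.11 for Traf6 (0.501). The models of Myd88, Irak1 and Irak4 overlap an exon of a neighbouring model, so their counts are uncertain.

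Of 24 genes for processing and release of these ligands, 20 were tested, 2 rose and 2 fell, against 2.46% and 3.01% of all tested genes, with a median log2 fold change of -0.08, beside 0.0016. Capn1 and Capn2 encode the large subunits of the calpains, proteases that cleave the interleukin-1α precursor. Capn1 rose to 85.2 ± 2.19 CPM in IPRN, against 69.6 ± 2.86 CPM in DMSO cells (edgeR adjusted p = 0.0309), and Capn2 to 473.7 ± 16.3 CPM in IPRN, against 400.9 ± 11.2 CPM in DMSO cells (edgeR adjusted p = 0.0374). Both share part of an exon with another model. Casp4, the murine caspase-11 gene, fell to 10.9 ± 1.13 CPM in IPRN, against 16.6 ± 1.28 CPM in DMSO cells (edgeR adjusted p = 0.0309). Capn1, Capn2 and Casp4 were each called in 1 of the 6 fits with a library left out. Casp1, the protease that matures interleukin-1β and interleukin-18, had 0.329 ± 0.0833 CPM in IPRN and 0.559 ± 0.208 CPM in DMSO cells, and Nlrp3, an inflammasome sensor, 0.216 ± 0.128 and 0.139 ± 0.0346 CPM (SD, n = 3 each; edgeR adjusted p = 0.439 and 0.695). Nlrp3 had 13, 8 and 23 counts in IPRN 1, 2 and 3. Its 6, 12 and 12 counts in DMSO 1, 2 and 3 were all at or under the floor of 12 counts.

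A list of 34 genes that interleukin-1 is known to induce in fibroblasts, many of which other stimuli induce as well, held 32 tested genes. Of these 19 fell and 0 rose, against 3.01% and 2.46% of all tested genes, with a median log2 fold change of -0.53, beside 0.0016 over all tested genes. Lif, which encodes leukaemia inhibitory factor, fell to 47.5 ± 2.29 CPM in IPRN, against 218.2 ± 4.54 CPM in DMSO cells (log2 fold change -2.20 ± 0.0544, SE; edgeR adjusted p = 1.07e-05). Ptgs2, the inducible cyclooxygenase gene, fell to 342.1 ± 10.5 CPM in IPRN, against 1073 ± 51.6 CPM in DMSO cells, and Cxcl5, a neutrophil chemokine gene, to 171.5 ± 6.78 CPM in IPRN, against 541.2 ± 27.4 CPM in DMSO cells (SD, n = 3 each). Without DMSO 1, 2 or 3 the list had 8, 9 and 9 genes called lower, and without both IPRN 3 and DMSO 1 it had 6. Earlier results of these data were known when the list was written, so its direction is not independent evidence, and Nfkbiz stands in both the signalling and the response list.

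**Figure D5:**
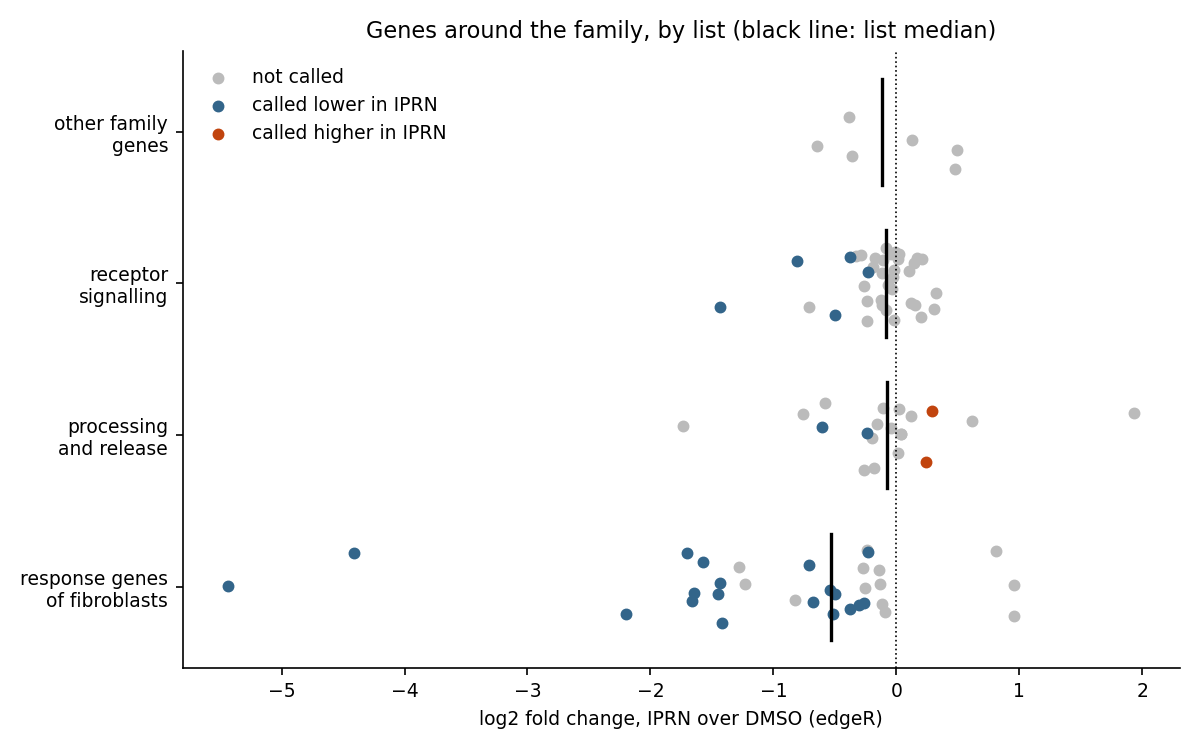
Log2 fold change of IPRN over DMSO (horizontal axis) of each tested gene in the 4 lists around the family, with called genes coloured and the median of each list as a black line. The response genes have a median of -0.53, and the medians of the other 3 lists lie between -0.12 and -0.08.

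The genes whose profile over the 6 libraries was most like that of Il1a, by the root mean square difference of centred log2(CPM + 0.5) values among protein-coding genes of at least 5 CPM, were Fos (0.145), Atf3 (0.184) and Lif (0.191). Fos and Atf3 encode leucine zipper transcription factors, and Fos had 2.31, 2.31 and 2.79 CPM in IPRN 1, 2 and 3 and 12.5, 12.0 and 13.3 CPM in DMSO 1, 2 and 3. For Il1rl1 they were C3 (0.0229), the complement component gene, Ccn1 (0.0246), which encodes a matricellular protein, and Postn (0.0466), which encodes periostin. For Il1rap they were Dusp6 (0.0423), an ERK phosphatase gene, Lss (0.0469), which encodes lanosterol synthase, and Amigo2 (0.0472), an adhesion molecule gene. Lss and Amigo2 share part of an exon with another model. For Il1rn, with genes of at least 1 CPM, they were Hid1 (0.111), Pkp2 (0.165), the plakophilin-2 gene, and Dhtkd1 (0.173), a mitochondrial dehydrogenase gene, all of which had their lowest value in DMSO 1.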

How the data were processed

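Gene expression was measured by sequencing of oligo(dT)-captured, fragmented and randomly primed RNA, per the labels' protocols, in 3 IPRN and 3 DMSO libraries, grouped by title. The authors deposited 1 table per library with a whole-number count per gene, not normalised, for 55401 genes, of which 28233 were at 0 in all libraries. The deposited FPKM values are scaled by length and library size, per the file headers, and list each count of 0 as 0.0001. Cutadapt 1.9 was used, per the submitters' processing notes. For the aligner, the counter and the build, the name is not given in the sources used here. Positions are on GRCm38, since 94.2% of 55141 gene identifiers shared with GENCODE M21 had identical coordinates. Overlapping models were taken from that release, and promoters from RefSeq (GRCm38.p6).

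Counts were fitted in R 4.3.3 with edgeR 4.0.16 (TMM, expression filter with a minimum count of 10, quasi-likelihood test on group, two-sided, Benjamini-Hochberg adjustment over 17159 genes, threshold 0.05), and the script was tested on simulated data. CPM are counts scaled by the TMM library sizes. The SE is the log2 fold change over the square root of F. Total counts were 60320282 to 78629444. As low counts came in steps, the number of separate fragments behind these totals is not known, so they do not set the precision. Intervals and floors cover counting error only, as PCR copies were not told apart. Replicates of a group differed beyond counting noise (chi-square of 31.2 to 88.8 per degree of freedom), so each library was counted as 1 sample. The adjusted p-values measure only the spread between these libraries. Where a library was left out, the expression filter of the full fit was kept.

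The 8 genes, the lists and the markers were chosen with earlier results of these data known. Named are all 8 genes, the 3 called genes with the smallest adjusted p of each list, other family genes of at least 0.5 CPM, 6 fixed signalling and inflammasome genes, and the 3 genes most like each of 4 members. Other genes were named after their values were seen. One gene counted in the list of processing and release is not reported here. Alternatives were RLE size factors, DESeq2 1.42.0, limma 3.58.1 on log2(FPKM + 0.1), other filters, libraries left out, a term for libraries with liver transcripts, a replicate block and counts divided by 4.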

Additional observations from a re-analysis of the deposited data

How the results depend on the processing

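The number of genes called, 938 as reported, was 2312 in DESeq2, 621 with no expression filter, 429 with a term for libraries with liver transcripts, 53 without both IPRN 3 and DMSO 1, and 133 to 1086 with 1 library left out. Of the 8 genes, 4 were called as reported, 3 to 4 with 1 library left out (Il1r1 was not called without DMSO 1, 2 or 3) and 1 without both IPRN 3 and DMSO 1 (Il1a); as the genes were chosen by this contrast, nothing is read from these counts. Among other family genes 1 was called lower in DESeq2 and 1 with a mean of at least 50 counts (Il1rl2 in each). Signalling genes called lower, 5 as reported, were 7 in DESeq2 and 6 with a mean of at least 50 counts. They were 2 with no filter, with the liver term or with limma, 1 to 3 with 1 library left out and 1 without both. Processing genes, 2 called in each direction as reported, were 1 in each direction with no filter, 0 to 2 with 1 library left out and 0 without both or with the liver term, and limma called 1 lower. Response genes called lower, 19 as reported, were 8 to 19 with 1 library left out and 6 without both, and DESeq2 called 1 higher (Irf1).

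The log2 fold change of Il1b ran from -0.17 (without DMSO 1) to 1.01 (without DMSO 2) and was 0.94 with the liver term. That of Il33 ran from -1.20 to -0.52 with 1 library left out. That of Il1rn ran from 0.54 to 1.80, and was 1.66 with the liver term and 0.45 with limma. That of Il18 ran from -1.01 to -0.31, and was -0.20 without both libraries. Il1b and Il1rn had no value under the filter of at least 50 counts. Over all alternatives run, the log2 fold changes were -2.43 to -2.14 for Il1a and -0.73 to -0.55 for the receptor genes. Every IPRN value of these genes lay below every DMSO value, so leaving libraries out could not change their direction. As this contrast chose them, nothing is read from it. The causes were not tested. Dividing counts by 4, chosen after seeing the data, left 4 of the 8 genes called.

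Deviations of same-numbered libraries correlated at -0.08, 0.02 and -0.06, and the highest value of any pairing was 0.12 (IPRN 3 with DMSO 1). With 3 libraries in each treatment, values this small cannot show whether the numbers pair the libraries. With a replicate block, 103 genes were called in all, 3 of the 8 genes (Il1r1 was not), 1 signalling gene, 0 processing genes in either direction and 7 response genes, and Il1rn was at 1.63. The excess of low counts at 4, 8 and 12 limits what can be said of Il1b and Il1rn.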
